A study of Mus musculus with 20 samples.

Results

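Heart and uterus were compared here as 2 muscular organs, 1 built on striated muscle and 1 on smooth muscle, in 4 of the 20 bulk RNA-sequencing libraries of a mouse study of 10 tissues. The 4 libraries were every heart and every uterus library of the series: 1 heart and 1 uterus from the control group, labelled "sasame oil" (called control below), and 1 heart and 1 uterus from the group labelled DHEA, the steroid dehydroepiandrosterone. All mice were labelled WT (wild type), and uterus is spelled "Utery" in the labels. The dose, the duration, the strain, the age and the number of mice, and which tissues came from the same animal, are not stated by the labels, and neither is the part of the heart or uterus that was taken. Each organ therefore had 2 libraries that differed in treatment, so the spread within an organ holds the treatment difference as well as the spread between samples, and no p-value below measures more than that. Values are FPKM (fragment counts relative to the length of the gene and the size of the library), and the 2 values of an organ are given in the order control, DHEA; where values are set against each other, heart comes first. A gene was called higher in an organ where both of its libraries exceeded both libraries of the other organ by at least 2-fold on FPKM + 1.

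Striated muscle of the heart contracts through sarcomeres, in which thick filaments of myosin pull on thin filaments of actin once calcium binds troponin. Smooth muscle of the uterine wall has no sarcomeres and no troponin; there calcium acts through calmodulin and myosin light chain kinase, which phosphorylates the regulatory light chain of myosin, and a phosphatase reverses that step. Different genes of the same families (myosin, actin, tropomyosin, calcium pumps) encode the isoforms of each muscle, and serum response factor (SRF), which binds a short promoter element called the CArG box, drives contractile genes in both.

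The CArG box was looked for in the promoters of contractile genes, since these are the genes in which the organs differed most clearly by family member. Of the 32851 mouse promoters in the RefSeq table (build GRCm38.p6), 1.467% had a CArG box (CC, then 6 bases that are A or T, then GG, which reads alike on both strands) in the 250 bases before the start of the gene. It was present in 3 of 19 promoters of the cardiac thick-filament genes (Myl3, Myl7 and Myom1), in 8 of 32 of the thin-filament and Z-disc genes (Acta1, Actc1, Fhl2, Ldb3, Myom1 and Nebl, some with several starts), in 5 of 28 of the smooth-muscle genes (Fbxl22, Filip1l, Myl6, Myl9 and Vcl) and in 2 of 14 of the nonmuscle genes (Actg1 and Cnn2). A looser form that allows 1 G or C among the 6 middle bases was present in 8.593% of all promoters. The 180 bases before the start of 4 actin genes and 2 regulatory myosin light chain genes are shown. They run 5′ to 3′ on the strand of the gene, with both forms of the box in capitals. Of these genes, Actc1 and Myl7 were called higher in heart, Acta2, Actg1 and Myl9 higher in uterus, and Acta1 in neither.
Actc1 (cardiac actin, chr2:114052876-114053055, minus strand): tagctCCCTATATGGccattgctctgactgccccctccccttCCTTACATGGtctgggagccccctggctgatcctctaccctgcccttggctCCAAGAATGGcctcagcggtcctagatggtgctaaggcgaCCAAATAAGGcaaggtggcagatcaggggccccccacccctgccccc
Acta1 (skeletal actin, chr8:123894776-123894955, minus strand): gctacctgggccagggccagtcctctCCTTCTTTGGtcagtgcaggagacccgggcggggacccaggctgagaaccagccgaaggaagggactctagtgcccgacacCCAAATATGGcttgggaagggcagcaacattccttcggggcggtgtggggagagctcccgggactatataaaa
Acta2 (smooth muscle alpha-actin, chr19:34255374-34255553, minus strand): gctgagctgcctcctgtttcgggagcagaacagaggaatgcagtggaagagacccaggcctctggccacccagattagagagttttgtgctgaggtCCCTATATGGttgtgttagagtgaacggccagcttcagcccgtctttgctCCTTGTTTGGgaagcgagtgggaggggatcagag
Actg1 (nonmuscle gamma-actin, chr11:120348496-120348675, minus strand): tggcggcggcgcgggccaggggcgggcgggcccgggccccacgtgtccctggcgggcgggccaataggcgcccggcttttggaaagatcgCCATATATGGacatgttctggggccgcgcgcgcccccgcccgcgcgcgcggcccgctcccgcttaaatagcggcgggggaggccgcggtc
Myl7 (atrial regulatory light chain, chr11:5898783-5898962, minus strand): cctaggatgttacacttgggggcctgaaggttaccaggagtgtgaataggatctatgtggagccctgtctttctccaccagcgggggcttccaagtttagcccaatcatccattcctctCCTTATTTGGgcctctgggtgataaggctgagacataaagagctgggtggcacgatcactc
Myl9 (smooth muscle regulatory light chain, chr2:156775284-156775463, plus strand): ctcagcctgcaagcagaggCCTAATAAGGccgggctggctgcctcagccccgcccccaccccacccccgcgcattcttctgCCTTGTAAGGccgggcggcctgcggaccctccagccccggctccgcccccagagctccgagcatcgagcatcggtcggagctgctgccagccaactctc
The strict form began 47 bases before the start in Actc1, 73 in Acta1, 90 in Actg1, 61 in Myl7 and 161 in Myl9, so a heart gene, an atrial gene, a smooth-muscle gene and a nonmuscle gene all had it. Acta2 had only the looser form, at 84 and at 34 bases before the start. The same search covered the cardiac markers, whose sequences are not shown. Myh6 had only the looser form, at 149 bases before the start, and Tnnt2 had neither form at any listed start. A match is a description of the letters and not a binding site. The table held no entry for Actg2 or Myh11.

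Library depth was alike, with 15365834 to 20291939 reads assigned to genes. Mitochondrially encoded genes took 16.1% and 10.7% of reads in heart and 5.79% and 1.45% in uterus, and the median of all 12402 genes tested (mean of at least 1 FPKM over the 4 libraries) was lower in heart by 0.72 on the log2(FPKM + 1) scale. Changes below are to be read against that shift. By the 2-fold rule 1022 genes (8.24% of those tested) were higher in heart and 2985 (24.1%) higher in uterus; with each library centred on its median the larger side turned, to 1835 and 1095, and with each library rescaled without mitochondrial and the 50 most abundant genes the counts were 1271 and 2220 of the same 12402. limma on log2(FPKM + 1), with Benjamini-Hochberg adjustment at 0.05, called 1524 genes (12.3%) higher in heart and 5107 (41.2%) higher in uterus, and these included 1012 and 2884 of the genes called by the rule. Without either heart library limma called 0 genes in both directions, although 997 to 1055 genes higher in heart and 2660 to 2796 higher in uterus had an unadjusted p under 0.05. An exact permutation test of 2 libraries against 2 cannot go below 0.333. The 2 heart libraries lay close together and the 2 uterus libraries did not: the SD over genes of DHEA minus control was 0.264 in heart and 0.904 in uterus, on the log2 scale. Between the uterus libraries 904 genes (7.29%) were at least 2-fold higher and 1177 (9.49%) at least 2-fold lower with DHEA, against 49 (0.395%) and 42 (0.339%) between the heart libraries, with 1 library a side and hence no test.

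The 4 genes that mark the 2 muscles separated the organs without overlap. Myh6, the fast cardiac myosin heavy chain, was at 3552 and 3978 FPKM in heart and 0.0371 and 0.349 FPKM in uterus, and Tnnt2, cardiac troponin T, was at 797 and 837 FPKM in heart and 2.72 and 0.8003 FPKM in uterus. Myh11, the smooth muscle myosin heavy chain, was at 10.2 and 10.7 FPKM in heart and 201 and 474 FPKM in uterus, and Actg2, the gamma-actin of visceral smooth muscle, was at 1.57 and 1.69 against 198 and 1265 FPKM. The uterus libraries carried almost no cardiac marker, whereas the heart libraries carried a low level of Myh11. In tissue RNA, fewer cells of a type and less RNA per cell cannot be told apart. The log2 difference, heart minus uterus, was 11.63 (SE 0.23, adjusted p = 0.000741 by limma) for Myh6 and -7.57 (SE 0.95, adjusted p = 0.00815) for Actg2.

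**Figure D1:**
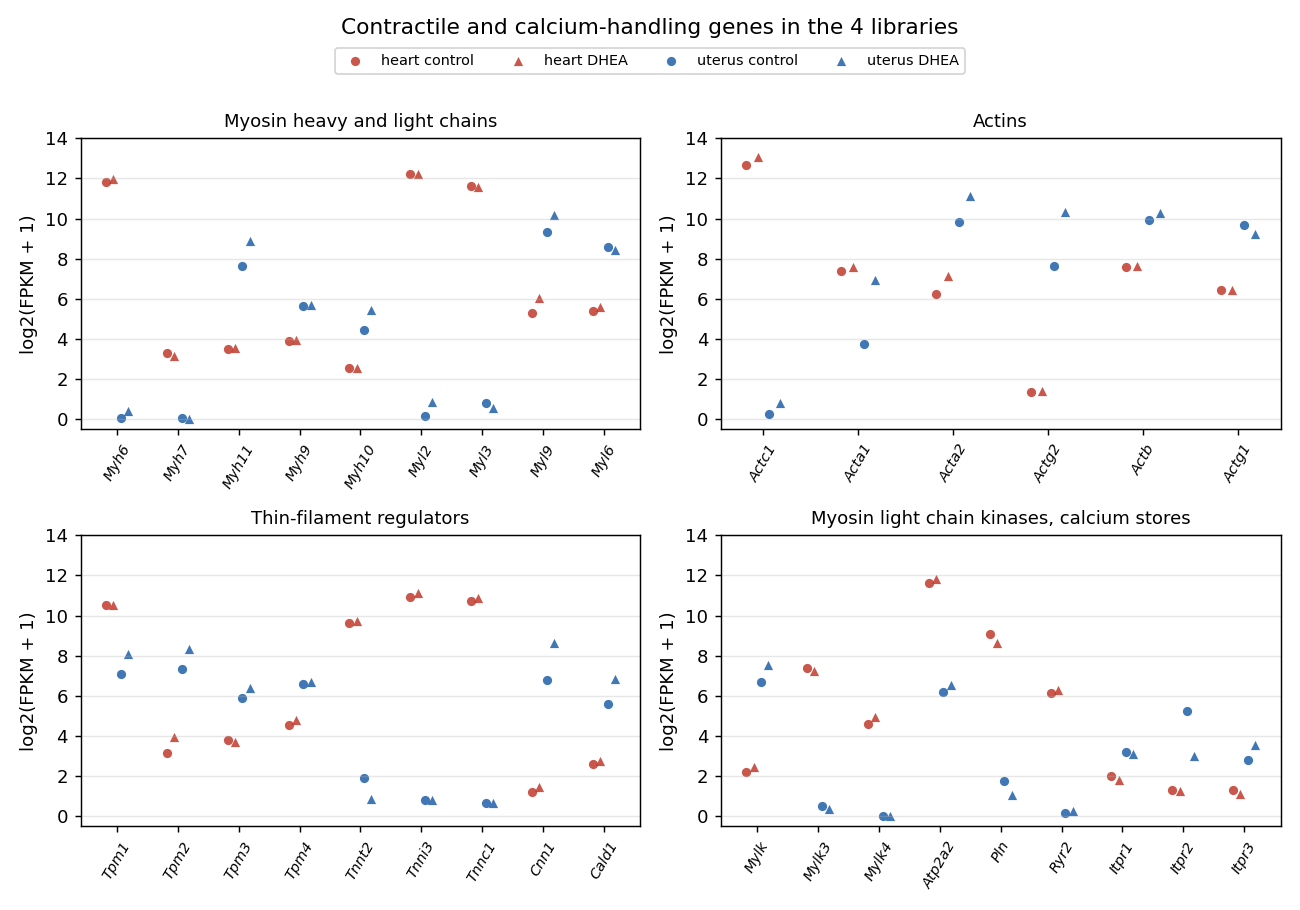
log2(FPKM + 1) of contractile and calcium-handling genes in each of the 4 libraries, grouped by family; red points are heart and blue points uterus, circles control and triangles DHEA. Within the myosin, actin, tropomyosin and kinase families the heart-higher and uterus-higher members differ, while Acta1 and Tpm1 are high in uterus as well, with Acta1 at 12.6 and 120.5 FPKM and Tpm1 at 137 and 268 FPKM there.

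Thick-filament and M-band genes of the heart were higher in heart in 19 of the 20 measured members, with Myom3 below the level tested, against 8.24% of all genes, with a median log2 difference of 5.59 against -0.72 over all genes. They took 5.23% and 5.75% of the reads assigned to genes in heart and at most 0.0168% in uterus. Myl2, the ventricular regulatory light chain, was at 4738 and 4807 FPKM in heart and 0.128 and 0.802 FPKM in uterus. Myl3, the ventricular essential light chain, was at 3186 and 3091 against 0.732 and 0.454 FPKM, and Mybpc3, cardiac myosin-binding protein C, at 825 and 895 against 0 and 0.0469 FPKM. Each of these separated the organs by over 9 on the log2 scale. Myh6 made up 99.4% and 99.5% of the summed FPKM of the 9 muscle myosin heavy chains in heart, and Myh11 made up 99.9% of it in both uterus libraries. Myh7, the slow cardiac heavy chain that predominates in large mammals, stood at 8.78 and 7.79 FPKM in heart and 0.0289 and 0 FPKM in uterus, below Myh11 in the heart libraries. Myh7b, another slow-type heavy chain, was at 2.82 and 3.09 against 0.046995 and 0.0368 FPKM. Ttn, the giant spring protein titin, was at 18.1 and 21.5 FPKM in heart and 0.00531 and 0.00708 FPKM in uterus, and Trim54, a ubiquitin ligase of the sarcomere, was at 155 and 156 FPKM in heart with no read in uterus. Myom1, an M-band protein, was the member with the most RNA in the DHEA uterus (165 and 186 against 3.35 and 11.4 FPKM). In the control uterus it was Smyd2 (19.99 and 16.7 against 6.56 and 6.44 FPKM).

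Thin-filament and Z-disc genes followed the same pattern in 22 of 25 measured members, of which 24 were tested, against 8.24% of all genes. Their median difference was 6.31 on the log2 scale. Actc1, cardiac actin, was at 6410.3 and 8518 FPKM in heart and 0.193 and 0.755 FPKM in uterus, the largest mean difference of the 232 named genes (12.32, SE 0.31, adjusted p = 0.000823 by limma). Tnni3, the inhibitory subunit of cardiac troponin, reached 1913 and 2250.4 FPKM in heart, and Tnnc1, the calcium-binding subunit, 1669 and 1908 FPKM, and both stayed under 1 FPKM in uterus. Actn2, the alpha-actinin of the Z disc, was at 534 and 659 against 0.131 and 0.1802 FPKM. The 2 members that were not called were Acta1, skeletal actin (165 and 189 FPKM in heart, 12.6 and 120.5 FPKM in uterus), and Tnnt1, slow skeletal troponin T (9.04 and 7.77 against 3.904 and 0.997 FPKM). Acta1 in the DHEA uterus was within a factor of 2 of the heart, and in the control uterus more than 10-fold lower. Without the DHEA uterus Acta1 passed the rule, and after centring all 24 tested members did, Acta1 and Tnnt1 included. Tpm1, an alpha-tropomyosin gene that both muscles use with different exons, was higher in heart (1486 and 1457 against 137 and 268 FPKM), and the table, which has 1 value a gene, does not separate its transcripts.

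Smooth-muscle contractile genes were higher in uterus in 18 of 26 tested members, against 24.1% of all genes, with a median difference of -2.81; centring left 15. They took 1.25% and 2.83% of uterine reads and 0.494% and 0.592% of reads in heart. Acta2, smooth muscle alpha-actin, was at 75.5 and 139.8 FPKM in heart and 909.9 and 2261 FPKM in uterus. Of the summed FPKM of the 4 muscle actins, Actc1 made up 96.4% and 96.3% in heart, whereas in uterus Acta2 made up 81.2% and 62.0% and Actg2 17.7% and 34.7%. Thus the 2 smooth muscle actins together held nearly all muscle actin RNA of the uterus, with the Actg2 part larger in the DHEA library. Cnn1, calponin, an actin-binding regulator of smooth muscle, was at 1.31 and 1.72 FPKM in heart and 109.6 and 399.7 FPKM in uterus. Myl9, the smooth muscle regulatory light chain, was at 38.8 and 65.1 against 636 and 1137 FPKM, and Csrp1, a cytoskeletal LIM protein, at 31.8 and 38.5 against 503 and 889 FPKM. The groups did not overlap for any of these 3. Tpm2, beta-tropomyosin, was the counterpart of Tpm1: 8.04 and 14.2 FPKM in heart and 164 and 326 FPKM in uterus, or 0.526% and 0.941% of the FPKM of Tpm1 to Tpm4 in heart against 36.1% and 41.8% in uterus. Flna, an actin crosslinker, Lmod1, a smooth muscle leiomodin, and Cald1, caldesmon, were also higher in uterus, by 4.05, 3.90 and 3.55 on the log2 scale.

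Some genes of that list were not higher in uterus. Jph2, which ties the cell surface to the calcium store (165 and 222 against 22.7 and 58.6 FPKM) and Fblim1, a filamin-binding protein (74.5 and 67.7 against 21.5 and 26.7 FPKM) were among the members higher in heart. The 5 members called in neither organ were Des, Pgm5, Synpo2, Vcl and Fbxl22. Des, desmin, the intermediate filament of all muscle, was at 501 and 577 FPKM in heart and 115 and 479.6 FPKM in uterus, with the DHEA uterus close to the heart libraries. Pgm5, a protein of muscle adhesion plaques, was at 47.7 and 51.2 against 57.7 and 97.7 FPKM. Vcl, vinculin, was at 13.2 and 14.8 against 15.3 and 38.97 FPKM. Tagln, the smooth muscle protein transgelin, passed the rule (0.286 and 0.518 FPKM in heart, 6.49 and 11.6 FPKM in uterus) but its level in uterus was far below that of Cnn1 or Myl9; in the RefSeq annotation its span overlaps that of Pcsk7, and the part of this overlap in the low value was not tested.

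Nonmuscle actomyosin genes leaned to the uterus, with 11 of 15 (73.3%) higher there and 1 (6.67%) higher in heart, beside 24.1% and 8.24% of all genes. Their median difference was -1.82, and 6 of 15 were higher in uterus after centring. Of the cytoplasmic actins, Actb was at 190.4 and 200.2 against 981 and 1254 FPKM and Actg1 at 86.8 and 85.6 against 809 and 596 FPKM. Actb made up 2.75% and 2.19% of the FPKM of all 6 actins in heart, against 33.7% and 22.8% in uterus. Myh10, a nonmuscle myosin II heavy chain, was at 4.78 and 4.89 FPKM in heart and 20.96 and 43.2 FPKM in uterus, and Myh9, its paralog, at 13.7 and 14.3 against 48.8 and 50.3 FPKM; Myh9 fell just short of the rule after centring. Myh14, another nonmuscle heavy chain, was called in neither (17.2 and 17.4 against 7.59 and 30.03 FPKM). Tpm3 (13.1 and 11.8 against 58.2 and 84.1 FPKM) and Tpm4 (22.6 and 27.1 against 94.7 and 102 FPKM) were higher in uterus. Myl12a, a nonmuscle regulatory light chain, was the member higher in heart (81.5 and 107 against 39.8 and 33.5 FPKM). Its close paralog Myl12b was listed at 0.432 and 0.534 against 2.27 and 2.03 FPKM. Whether reads of such near copies were split between them was not tested. The FPKM of the nonmuscle list summed to 2511 and 2726 in uterus and to 4082 in the highest library of the other tissues, spleen control.

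Of the 20 measured genes of fast and slow skeletal muscle, 5 were tested, the others being under a mean of 1 FPKM, and the heavy chains Myh1, Myh2, Myh3, Myh4 and Myh8 lay at or under 0.0538 FPKM in all 4 libraries. Mybpc1, the slow skeletal myosin-binding protein C, was higher in uterus, at 0.0377 and 0.0142 FPKM in heart and 4.44 and 13.1 FPKM in uterus. Mybpc2, the fast skeletal form, was higher in heart (7.001 and 7.99 against 1.19 and 2.69 FPKM), as was the essential light chain Myl1 (14.9 and 21.9 against 1.29 and 0.141 FPKM). Tnni2 and Tnnt3, fast skeletal troponins, were called in neither organ; Tnni2 was at 1.52 and 2.06 against 3.25 and 7.897 FPKM.

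The 2 heart libraries differed in genes of the atria. Myl7, the atrial regulatory light chain, was at 55.1 and 977 FPKM in heart, Myl4, the atrial essential light chain, at 6.81 and 109 FPKM, and Sln, sarcolipin, which inhibits the calcium pump in atria, at 6.696 and 104 FPKM. Nppa, the atrial natriuretic peptide gene, was at 275 and 2226 FPKM, and Mybphl, an atrial myosin-binding protein, at 2.01 and 47.8 FPKM. In each of these 5 genes the DHEA heart was the higher library, by 3.01 to 4.12 on the log2 scale. The ventricular genes Myl2, Myl3 and Irx4 lay within 0.22 of each other between the same libraries. Nppb, a second natriuretic peptide gene, was higher in the DHEA heart by 1.55. The part of the heart sampled was not given, so more atrial tissue in a library and a treatment difference cannot be told apart. All 5 atrial genes still passed the 2-fold rule against uterus. However, limma, which pools the spread within heart and within uterus, gave adjusted p = 0.0821 for Myl4 and 0.0944 for Mybphl.

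**Figure D2:**
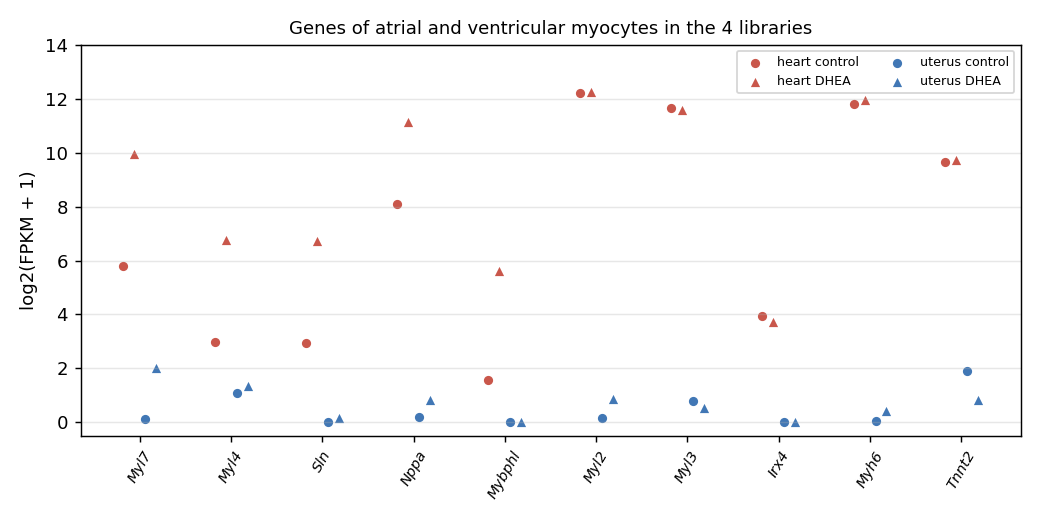
log2(FPKM + 1) of 5 atrial genes (Myl7 to Mybphl), 3 ventricular genes (Myl2, Myl3, Irx4) and 2 genes of all heart myocytes (Myh6, Tnnt2) in the 4 libraries; red is heart, blue uterus, circles control and triangles DHEA. The 2 heart points of each atrial gene are 3.01 to 4.12 apart, and those of the other genes nearly coincide.

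Genes of calcium release and reuptake differed between the 2 organs. Of the 29 tested 15 (51.7%) were higher in heart and 5 (17.2%) in uterus (2 after centring), with a median difference of 1.51. Of all genes 8.24% were higher in heart and 24.1% in uterus, so the uterus share of this list was the lower. Ryr2, the ryanodine receptor through which the cardiac store releases calcium, was at 70.7 and 78.2 FPKM in heart and 0.126 and 0.209 FPKM in uterus. Itpr1, Itpr2 and Itpr3, the inositol trisphosphate receptors that release calcium on hormone signals, were higher in uterus. Itpr1 was at 3.02 and 2.51 against 8.05 and 7.53 FPKM, Itpr2 at 1.47 and 1.42 against 37.5 and 6.93 FPKM and Itpr3 at 1.44 and 1.14 against 5.904 and 10.7 FPKM. Itpr1 and Itpr3 did not pass the rule after centring. Atp2a2, the SERCA2 pump that refills the store, was the main pump gene of both organs but was much higher in heart (3168 and 3674 against 72.8 and 92.98 FPKM). It made up 99.8% and 99.9% of the FPKM of the 3 SERCA genes in heart and 78.3% and 91.1% in uterus, where Atp2a3 made up 21.6% and 8.897%. Pln, phospholamban, which restrains SERCA2, was at 536 and 399 FPKM in heart and 2.42 and 1.08 FPKM in uterus. Casq2, the calcium buffer of the cardiac store, was at 448 and 510.0 against 1.69 and 5.303 FPKM, and Hrc, another buffer, at 623 and 713 against 1.51 and 1.81 FPKM. The calcium pumps of the cell surface ran the other way: Atp2b4 was at 4.505 and 3.75 FPKM in heart and 24.8 and 35.4 FPKM in uterus, and Atp2b1, which did not pass after centring, at 2.35 and 2.73 against 11.1 and 10.4 FPKM. Cacna1c, the L-type calcium channel of both muscles, was higher in heart (16.4 and 16.9 against 4.07 and 5.72 FPKM), and Orai1 and Stim1, of store-operated entry, were called in neither organ (4.64 and 4.54 against 5.87 and 5.64 FPKM for Orai1).

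The kinases that phosphorylate myosin light chain split by gene. Mylk, the smooth muscle and nonmuscle kinase, was at 3.68 and 4.45 FPKM in heart and 102 and 186 FPKM in uterus, a log2 difference of -4.78 (SE 0.34, adjusted p = 0.00371 by limma). Mylk3, the cardiac kinase, was at 167 and 151 FPKM in heart and 0.451 and 0.308 FPKM in uterus, a difference of 6.86 (SE 0.16, adjusted p = 0.000817). Mylk4 was at 23.3 and 29.6 against 0 and 0.01904 FPKM, and Mylk2, the skeletal form, stayed at or under 0.254 FPKM. The summed FPKM of the 4 kinases was 194 and 185 in heart and 103 and 187 in uterus, close in the DHEA pair and lower in uterus in the control pair, with Mylk3 at 86.1% and 81.5% of it in heart and Mylk at 99.3% and 99.7% in uterus. Of the 28 tested genes of myosin phosphorylation and its regulation, these kinases included, 17 were called in neither organ, beside 67.7% of all genes, and 8 were higher in uterus (6 after centring) and 3 in heart. The small GTPase gene Rhoa (37.2 and 40.4 against 47.1 and 62.3 FPKM), the phosphatase catalytic subunit Ppp1cb (35.96 and 34.4 against 43.1 and 44.02 FPKM) and the targeting subunit Ppp1r12b (31.7 and 33.6 against 22.5 and 32.6 FPKM) were among them. Higher in uterus were Ppp1r14a, the smooth muscle inhibitor of the phosphatase also called CPI-17 (3.33 and 2.68 against 23.6 and 19.8 FPKM), and the targeting subunit Ppp1r12a (4.402 and 5.39 against 24.8 and 27.1 FPKM). So were 2 genes of relaxation by cyclic GMP, Irag1 (3.32 and 3.18 against 38.7 and 69.6 FPKM) and the kinase Prkg1 (0.681 and 0.712 against 3.0001 and 3.78 FPKM, not after centring). Calm2, a calmodulin gene, was at 56.4 and 60.99 against 283 and 289 FPKM. Camk2a, a calmodulin-dependent kinase, was higher in heart (8.82 and 9.002 against 0.568 and 0.471 FPKM).

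Of 38 tested factors and cofactors 12 (31.6%) were higher in heart and 16 (42.1%) in uterus, beside 8.24% and 24.1% of all genes. The median difference was -0.74, near that of all genes. Gata4, a cardiac zinc-finger factor, was at 38.5 and 49.9 FPKM in heart and 0.01597 and 0.113 FPKM in uterus. Nkx2-5, a cardiac homeobox factor, was at 19.3 and 25.4 FPKM in heart with no read in uterus, at least 177-fold higher against a limit of 3 reads per library. Tbx20, a T-box factor, was at 12.02 and 11.8 FPKM in heart, also with no read in uterus. On the uterus side stood 2 homeobox genes that pattern the uterus, Hoxa10 at 0 and 0.0197 against 82.4 and 39.1 FPKM and Hoxa11 at 69.6 and 27.6 FPKM in uterus with no read in heart. Emx2, a homeobox gene of the reproductive tract, was at 42.1 and 45.2 FPKM in uterus, and Pgr, the progesterone receptor, at 33.2 and 40.8 FPKM, each with no read in heart. Esr1, the estrogen receptor, was at 0.0583 and 0.0188 FPKM in heart and 46.3 and 42.1 FPKM in uterus. Srf was at 35.9 and 48.3 FPKM in heart and 29.9 and 25.3 FPKM in uterus, and of the MEF2 family Mef2a was at 9.26 and 7.92 against 6.92 and 7.62 FPKM and Mef2c at 3.47 and 3.19 against 3.41 and 4.42 FPKM. None of these 3 was called, while Mef2d, of the same family, was higher in heart (37.7 and 40.4 against 14.5 and 14.5 FPKM). Myocd, myocardin, the SRF cofactor of both muscles, was at 10.6 and 12.6 FPKM in heart and 2.41 and 5.48 FPKM in uterus and missed the rule with a gap of 0.84 on the log2 scale (adjusted p = 0.0357 by limma, higher in heart). The related cofactors Mrtfa (1.605 and 1.78 against 4.48 and 5.91 FPKM) and Mrtfb (5.56 and 4.82 against 14.8 and 7.87 FPKM) were not called by the rule either; Mrtfa, with a gap of 0.98, had adjusted p = 0.0142 by limma as higher in uterus. Hand2, a factor of heart and uterine stroma, was at 14.2 and 14.3 FPKM in heart but at 35.1 and 7.501 FPKM in uterus, with the heart libraries between the 2 uterus libraries.

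**Figure D3:**
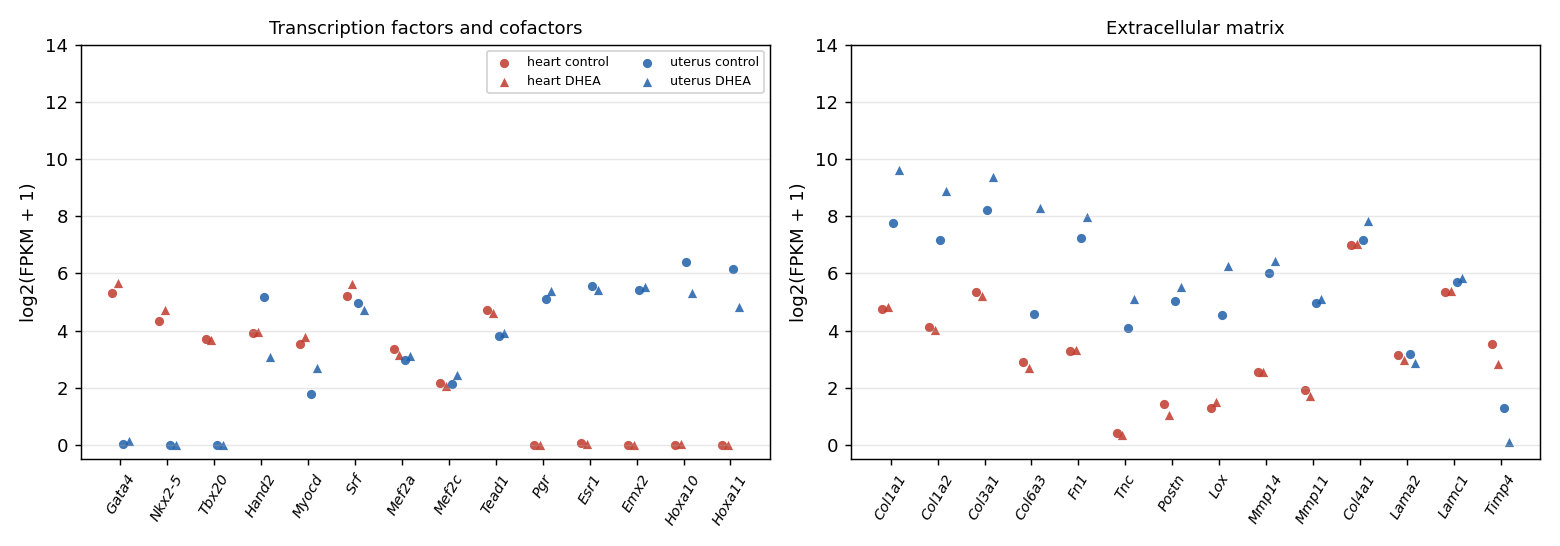
log2(FPKM + 1) of transcription factors and cofactors (left) and of extracellular matrix genes (right) in the 4 libraries; red is heart, blue uterus, circles control and triangles DHEA. Srf, Mef2a and Mef2c overlap or nearly overlap between the organs, as do Col4a1, Lama2 and Lamc1, whereas Pgr, Emx2 and Hoxa11 have no read in heart.

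Of 17 tested regulators of muscle splicing 2 were higher in heart (4 after centring, and 4 without the control uterus), 4 were higher in uterus and 11 (64.7%) were called in neither, near the 67.7% of all genes. limma called 3 higher in heart and 8 in uterus. Rbm20, which controls splicing of titin, was at 40.2 and 46.8 FPKM in heart and 1.87 and 1.604 FPKM in uterus, and Rbfox1 at 8.05 and 7.81 against 0.142 and 0.0111 FPKM. Ptbp1, a splicing repressor, was at 9.77 and 10.1 FPKM in heart and 39.4 and 56.2 FPKM in uterus. Esrp1, a splicing factor of epithelium, had no read in heart and 14.8 and 16.1 FPKM in uterus, where epithelial genes were also present (values below). Rbpms, a splicing regulator of smooth muscle, was at 27.3 and 32.5 against 34.4 and 33.03 FPKM, and Rbfox2 at 24.2 and 24.8 against 28.2 and 23.1 FPKM. Rbm24, a muscle splicing factor, was at 63.1 and 77.6 FPKM in heart and 43.03 and 8.55 FPKM in uterus. It passed the rule without the control uterus, and also after centring with all libraries kept.

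Ion channels were mostly on the heart side: 14 of 27 tested (51.9%) were higher in heart and 3 (11.1%) in uterus, beside 8.24% and 24.1% of all genes. The median difference was 1.67. Kcnj11, the pore of the ATP-sensitive potassium channel, was at 64.5 and 65.1 against 0.203 and 0.0133 FPKM, while Kcnj8, its vascular relative, was alike (19.8 and 19.3 against 19.9 and 12.3 FPKM). Kcnip2, a subunit of the transient outward current, was at 49.2 and 47.8 FPKM in heart and 2.26 and 0.0399 FPKM in uterus. The 3 genes higher in uterus were Kcnmb1, the smooth muscle subunit of the large-conductance potassium channel (0.788 and 0.768 against 10.1 and 20.9 FPKM), Ano1, a calcium-activated chloride channel (2.13 and 2.13 against 15.9 and 6.37 FPKM, not called after centring), and Gjb2, a gap junction gene of epithelium (0.07099 and 0.0268 against 8.45 and 110.5 FPKM). Gja1, connexin 43, which couples the myocytes of both organs, was at 74.3 and 59.7 FPKM in heart and 17.8 and 48.9 FPKM in uterus and was not called; the DHEA uterus was near the heart and the control uterus was not.

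Of 23 tested receptors and hormones that act on contraction, 6 (26.1%) were higher in heart and 5 (21.7%) in uterus (9 without the DHEA uterus). Over all genes the shares were 8.24% and 24.1%, so the uterus share was near that of all genes. Oxtr, the oxytocin receptor of the myometrium, was at 0.0238 and 0.0537 FPKM in heart and 4.17 and 111 FPKM in uterus, so the DHEA uterus was far above the control uterus (log2 difference between organs -4.53, SE 1.55, adjusted p = 0.0703 by limma, which missed the threshold). Of the prostaglandin E receptors, Ptger3 (0.01001 and 0.0226 against 5.11 and 5.15 FPKM) and Ptger4 (0.779 and 0.639 against 10.6 and 8.27 FPKM) were higher in uterus. Ptger2, of the same family, was at 9.81 and 0.583 FPKM in uterus and not called. Adrb1, a beta-adrenergic receptor, was higher in heart (7.74 and 8.72 against 0.811 and 0.26001 FPKM). Chrm2, the muscarinic receptor that slows the heart, was at 14.5 and 12.1 FPKM in heart and 0.0618 and 0.0968 FPKM in uterus. Nppb was at 167 and 490.4 FPKM in heart with no read in uterus, and Corin, the protease that activates natriuretic peptides, at 49.3 and 54.7 against 0.0346 and 0.0995 FPKM.

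Costamere, desmosome and intermediate filament genes were higher in heart in 16 of 32 (50%) and in uterus in 6 (18.75%), with 2 in uterus after centring. Over all genes the shares were 8.24% and 24.1%. The median difference of the list was 1.32. Xirp1, a protein of the intercalated disc, was at 54.97 and 76.6 FPKM in heart and 0.2502 and 0.133 FPKM in uterus. Cav3 (51.2 and 60.2 against 0.323 and 0.549 FPKM) and Cavin4 (61.6 and 83.9 against 0.0911 and 0.285 FPKM), of muscle caveolae, were higher in heart, whereas the general caveolar genes Cav1 (95.7 and 80.9 against 144 and 121 FPKM) and Cavin1 (108 and 119 against 251 and 161 FPKM) were called in neither. Within the dystrophin complex, Sgca was higher in heart (58.2 and 73.8 against 1.58 and 1.91 FPKM) and its relative Sgce higher in uterus (1.64 and 1.56 against 5.92 and 6.44 FPKM, not after centring). Dmd, dystrophin, was in neither (1.74 and 1.87 against 2.16 and 3.05 FPKM), and Utrn, its paralog, was higher in uterus (4.27 and 4.105 against 12.3 and 17.2 FPKM, not after centring). Hspb7, a small heat shock protein of heart, was at 753 and 1013 against 9.21 and 38.4 FPKM. The epithelial keratins Krt8 (0.262 and 1.25 against 277 and 343 FPKM) and Krt18 (0.674 and 1.97 against 334 and 151 FPKM) were higher in uterus.

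Genes of the interstitial matrix were more often higher in uterus than in heart. Of 44 tested genes of fibrillar collagens, elastic fibres and matricellular proteins 26 (59.1%) were higher in uterus and 0 in heart. Over all genes the shares also leaned to uterus, at 24.1% and 8.24%. The median difference of the list was -1.89. Centring gave 17 and 2, and without the DHEA uterus 4 were higher in heart. Of the chains of type I collagen, Col1a1 was at 25.99 and 27.4 against 215 and 784 FPKM and Col1a2 at 16.3 and 15.1 against 143 and 465 FPKM. Col3a1, type III collagen, was at 39.5 and 36.2 against 296 and 654 FPKM. Fn1, fibronectin, was at 8.698 and 8.89 FPKM in heart and 149 and 247 FPKM in uterus, and Tnc, tenascin C, at 0.344 and 0.273 against 15.9 and 33.2 FPKM. Postn, periostin, was at 1.71 and 1.07 against 31.5 and 45.5 FPKM. For these genes the 2 uterus libraries lay well clear of the heart. Col6a3, a chain of type VI collagen, was at 6.52 and 5.42 FPKM in heart and 22.7 and 309.6 FPKM in uterus; its control uterus was 1.66 above the heart on the log2 scale, and it did not pass the rule after centring and had adjusted p = 0.0781 by limma. The elastic fibre genes Eln (8.92 and 15.5 against 10.5 and 65.8 FPKM) and Fbn1 (16.6 and 13.1 against 12.3 and 44.96 FPKM) were called in neither organ, and in Fbn1 only the DHEA uterus was above the heart. Ltbp4, a binding protein of latent TGF-beta, was alike except in the DHEA uterus (59.3 and 62.1 against 63.05 and 129 FPKM).

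Of 23 tested basement membrane genes 16 (69.6%) were called in neither organ, near the 67.7% of all genes, 7 were higher in uterus and 0 in heart (2 in heart after rescaling or centring), with a median difference of -0.77, near that of all genes. Of the common chains of type IV collagen, Col4a1 was at 126 and 130.2 against 141 and 228 FPKM and Col4a2 at 97.8 and 104 against 88.9 and 157 FPKM. Lama2, the laminin chain of muscle fibres, was at 7.93 and 6.89 against 8.14 and 6.23 FPKM, and Lamc1, the common gamma chain, at 39.5 and 40.9 against 51.02 and 55.9 FPKM. The members higher in uterus included Lama3 (0.249 and 0.246 against 19.8 and 10.9 FPKM), a chain of epithelial laminin, and Col4a6, a chain of smooth muscle basement membrane (0.314 and 0.363 against 7.04 and 6.71 FPKM). Npnt, nephronectin, was at 0.5098 and 0.666 against 22.8 and 20.5 FPKM. Lamb2, a beta chain of muscle laminin (67.6 and 70.03 against 36.6 and 25.9 FPKM), and Dag1, dystroglycan, the laminin receptor (139 and 150.0 against 54.4 and 70.1 FPKM), had higher values in heart that fell short of the rule as deposited.

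Among 17 tested proteoglycans 7 (41.2%) were higher in uterus and 1 (5.88%), Gpc1, in heart (2 after rescaling or centring). Over all genes the shares were 24.1% and 8.24%. Gpc1, glypican 1, was at 98.4 and 104 FPKM in heart and 17.1 and 18.2 FPKM in uterus. Lum, lumican, a regulator of collagen fibrils, was at 30.3 and 20.01 against 207 and 238 FPKM, and Dcn, decorin, at 77.5 and 55.8 against 262 and 282 FPKM. Bgn, biglycan, was in neither (59.4 and 53.2 against 42.6 and 94.9 FPKM). Enzymes and inhibitors of matrix gave 11 of 33 (33.3%) higher in uterus and 2 (6.06%) in heart, beside the same 24.1% and 8.24% of all genes. Centring gave 5 and 4, and 19 were higher in uterus without the control uterus. Lox, which crosslinks collagen and elastin, was at 1.43 and 1.83 FPKM in heart and 22.4 and 75.9 FPKM in uterus. Mmp14, a membrane-bound collagenase, was at 4.81 and 4.85 against 63.3 and 85.8 FPKM, and Mmp11 at 2.83 and 2.27 against 30.5 and 33.03 FPKM. Mmp7, matrilysin, an epithelial protease, had no read in heart and 1.23 and 180.1 FPKM in uterus, nearly all of it in the DHEA library (adjusted p = 0.164 by limma, and not past the rule after centring). The 2 members higher in heart were Timp4, a protease inhibitor (10.6 and 6.08 against 1.43 and 0.0829 FPKM), and Pcolce2, an enhancer of procollagen processing (6.22 and 6.46 against 1.94 and 1.94 FPKM).

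**Figure D4:**
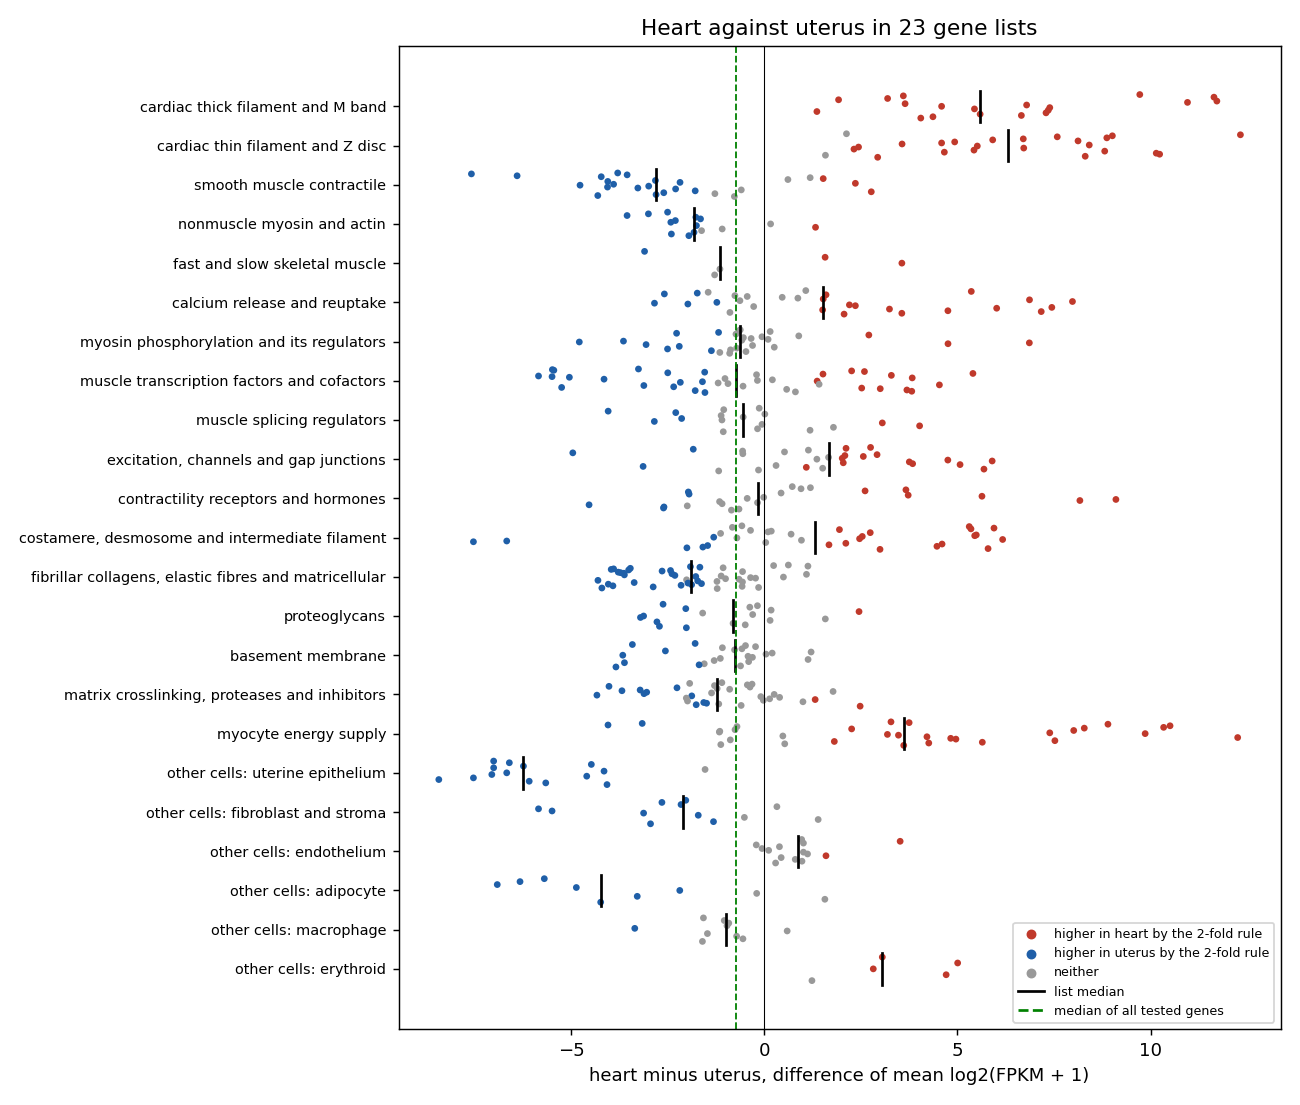
Heart minus uterus, as the difference of mean log2(FPKM + 1), of every tested member of 23 gene lists; red points passed the 2-fold rule as higher in heart, blue as higher in uterus and grey neither, black bars are list medians and the dashed line is the median of all tested genes, at -0.72. The cardiac filament lists lie wholly right of the dashed line, with medians of 5.59 and 6.31, and the basement membrane median, at -0.77, lies on it.

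The organ difference was of unlike size in the 2 treatments for smooth muscle and matrix. In the control pair alone 1236 of all tested genes (9.97%) were at least 2-fold higher in heart and 4753 (38.3%) in uterus, and in the DHEA pair 1560 (12.6%) and 4471 (36.1%). Of the 44 matrix genes 27 were higher in uterus in the control pair and 38 in the DHEA pair, whereas of the 26 smooth-muscle genes 19 and 20 were, and the thick-filament genes were higher in heart in 19 in either pair. The median of the smooth-muscle list was -2.49 in the control pair and -2.94 in the DHEA pair, and that of the fibrillar matrix list -1.28 and -2.35. For thick filaments it was 5.51 and 5.66. Between the uterus libraries 14 of 26 smooth-muscle genes were at least 2-fold higher with DHEA and 0 lower, beside 7.29% and 9.49% of all genes, and 27 of 44 matrix genes were higher and 1 lower. Between the heart libraries 0 smooth-muscle genes and 1 matrix gene differed 2-fold. With 1 library of each organ and treatment these are descriptions, with no test of the difference between treatments. In the same uterus libraries the endothelial list had 9 of 14 genes at least 2-fold lower with DHEA and the adipocyte list 8 of 9, while the macrophage list had 9 of 10 higher; their part in the matrix and muscle values was not tested.

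**Figure D5:**
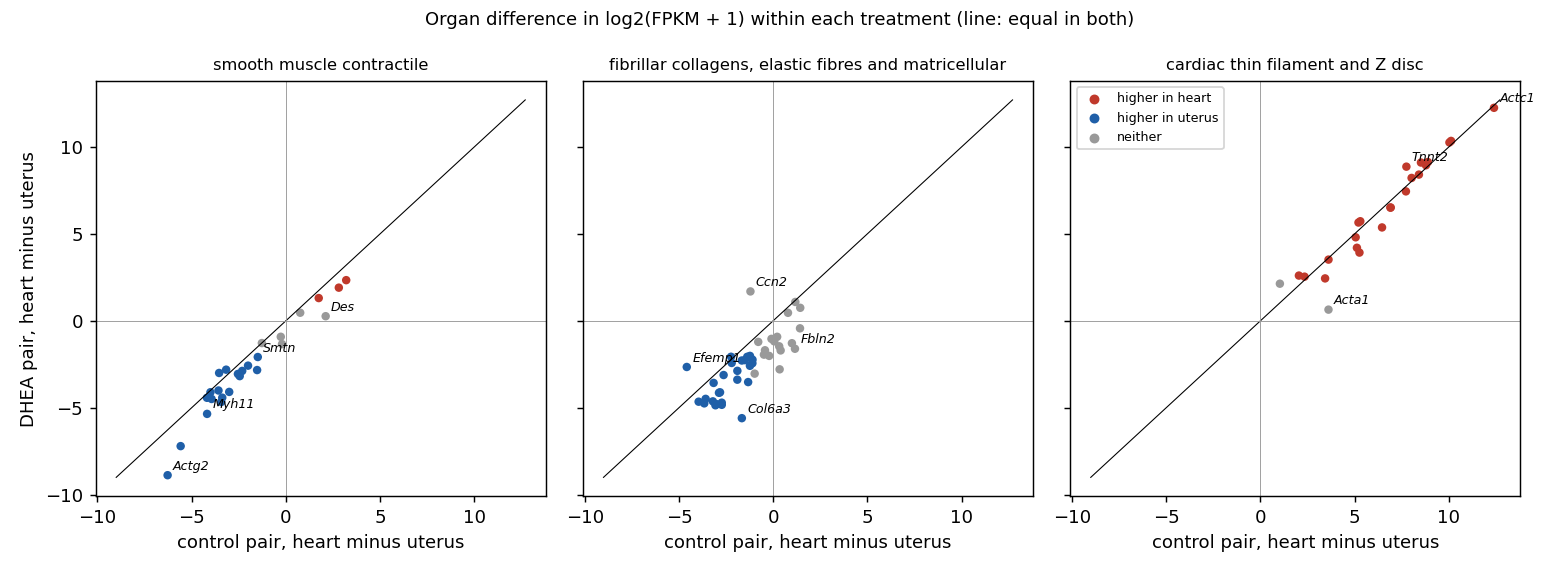
Heart minus uterus in log2(FPKM + 1) within the control pair (horizontal) and within the DHEA pair (vertical) for tested members of 3 gene lists; colours as called by the 2-fold rule, and the diagonal marks equal differences. Most smooth-muscle and matrix points lie below the diagonal, with medians of -2.49 and -1.28 in the control pair and -2.94 and -2.35 in the DHEA pair, and Ccn2 and Fbln2 are among the genes that lie on opposite sides of 0 in the 2 pairs.

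Genes that supply energy to the heart were higher in heart in 21 of 31 tested members (67.7%) and in uterus in 2 (6.45%). Over all genes the shares were 8.24% and 24.1%. The median difference of the list was 3.61. Mb, myoglobin, which stores oxygen, was at 7944 and 8005 FPKM in heart and 0.293 and 1.08 FPKM in uterus. Fabp3, the fatty acid carrier of muscle, was at 4071 and 4510.1 against 2.73 and 4.75 FPKM. Creatine kinase genes split as contractile ones did: the muscle form Ckm (559.9 and 556 against 0.0642 and 0.302 FPKM) and the sarcomeric mitochondrial form Ckmt2 (1449 and 1537 against 0 and 0.0658 FPKM) were higher in heart. The brain-type form Ckb (14.99 and 17.3 against 204 and 112 FPKM) and the ubiquitous mitochondrial form Ckmt1 (0.0684 and 0.335 against 3.32 and 88.4 FPKM, not after centring) were higher in uterus. Likewise Cox6a2, the muscle form of a cytochrome oxidase subunit, was at 1641 and 1885 against 0 and 0.862 FPKM, and its general paralog Cox6a1 at 76.9 and 89.6 against 139.6 and 132 FPKM, in neither.

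Markers of other cells were not alike between the organs. Their counts stand beside 8.24% of all genes higher in heart, 24.1% higher in uterus and 67.7% called in neither. Of 15 uterine epithelial genes 14 were higher in uterus, with sums of 1.85 and 7.28 FPKM in heart against 1537 and 7410 FPKM in uterus. Epcam, an adhesion protein of epithelium, had no read in heart and 89.9 and 179 FPKM in uterus, at least 1021-fold higher against a limit of 3 reads per library. Ltf, lactoferrin, a secreted protein of uterine epithelium, was at 0.347 and 0.05597 FPKM in heart and 27.996 and 5732 FPKM in uterus. Ltf was thus most of the epithelial sum in the DHEA uterus. Between the uterus libraries 3 of the 15 epithelial genes were at least 2-fold higher with DHEA and 6 lower, beside 7.29% and 9.49% of all genes. Of 9 tested adipocyte genes 7 were higher in uterus, with sums of 133 and 162 FPKM in heart against 1696 and 272 FPKM in uterus, and Adipoq, adiponectin, was at 0.247 and 0.326 against 175 and 24.1 FPKM. Of 12 fibroblast genes 9 were higher in uterus, with sums of 774 and 843 FPKM against 1679 and 1405 FPKM. Of 14 endothelial genes 12 were called in neither and 2 were higher in heart (7 without the control uterus), and sums of 1003 and 930 FPKM in heart against 649.7 and 225 FPKM in uterus. Of 10 macrophage genes 1, Cd14, was higher in uterus (8 without the control uterus), with sums of 361 and 259 FPKM against 354 and 978 FPKM. Erythroid genes were higher in heart in 4 of 5, with sums of 669 and 337 FPKM against 15.3 and 13.1 FPKM. The part of these cells in the muscle and matrix differences was not tested.

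The genes with the widest gaps were, in heart, Mb, Actc1, Myh6, Myl2, Myl3, Ckmt2, Tnni3, Tnnc1, Cox6a2 and Mybpc3, and in uterus Krt8, Wfdc2, Cdh1, Alox15, Epcam, Cxcl17, Plet1, Actg2, Cd24a and Plac8. The 10 heart genes were thus of the sarcomere and of energy supply, while Actg2 was the only smooth-muscle gene among the 10 of uterus. Wfdc2, a secreted epithelial protein, was at 0 and 0.282 FPKM in heart and 286 and 153 FPKM in uterus, and Alox15, a lipoxygenase, at 0.139 and 0.262 against 125 and 172 FPKM.

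The levels were also set beside the 16 libraries of the other 8 tissues, with no test. The share of all genes with their highest value in heart or in uterus was not computed. Counts of members highest in an organ therefore describe the lists only. By tissue mean, 19 of 20 thick-filament genes and 23 of 25 thin-filament genes had their highest value in heart, and 20 of 26 smooth-muscle genes in uterus. The FPKM of the thick-filament list summed to 13374 and 14972 in heart and to 85.9 in the highest other library, lung DHEA. That of the smooth-muscle list summed to 3812 and 8798 in uterus, and to 2137 in the highest other library, intestine DHEA. Myh11 reached 89.4 FPKM and Actg2 265 FPKM in that library, another organ with a smooth muscle wall. The fibrillar matrix list summed to 2959.6 and 6641 FPKM in uterus and 787 and 810.1 FPKM in heart, with 2636 FPKM in lung DHEA, and 23 of its 44 genes were highest in uterus.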

How the data were processed

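Libraries were bulk RNA of homogenised tissue, 1 for each tissue and treatment, aligned with HISAT2 2.0.5, per the submitters' processing notes, which list the builds mm39 and hg38; no label names the counting tool or its use of strand. The authors deposited 1 table of FPKM values with 24826 rows; 57 rows that shared 28 repeated symbols were dropped, which left 24769 genes. FPKM values were whole multiples of what 1 read is worth, to within 0.001 read in every library, in 99.988% of these genes, which gave the reads of each library; in simulated data this recovery was right in all libraries for 98.08% of genes.

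The deposited FPKM values were taken as log2(FPKM + 1), which understates changes of low genes, and genes were tested where their mean over the 4 libraries reached 1 FPKM. limma 3.58.1 (R 4.3.3) was fitted with trend on organ as the only factor (2 residual degrees of freedom), with Benjamini-Hochberg adjustment over all 12402 genes. On simulated data with 200 of 12402 genes raised 4-fold, limma called 99% and the 2-fold rule 88.5% of them, with 13 and 2 unchanged genes called. The simulated libraries had equal spread in both organs and no treatment difference. In these data the SD of DHEA minus control was 0.264 in heart and 0.904 in uterus, so those rates need not hold here. The alternatives tried were a pseudocount of 0.1, no filter and a mean of 5 FPKM, rescaling, centring, leaving out each library, a treatment block and all 20 libraries.

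The comparison and the 23 gene lists were chosen with earlier results of these data known, so counts are descriptions and no list was tested. Genes named are the 4 markers, all measured muscle myosin heavy chains, actins, Tpm1 to Tpm4 and the 4 light chain kinases, and from each list up to 4 members with the widest gap in each direction, up to 3 not called with the highest mean and up to 3 whose organ difference differed most between treatments, with the 10 widest gaps over all genes each way; other list members named were chosen for their known roles after their values were seen. Promoters come from RefSeq (GRCm38.p6), a build other than that of the files, and the looser motif was added after the strict one had been searched. Limits of 3 reads cover counting error only. The authors' table of fold changes was not used. Some list members are counted in the lists but not reported by name here.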

Additional observations from a re-analysis of the deposited data

Results flagged for a closer look

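2 list members lay on opposite sides in the 2 treatments, with heart at least 2-fold above uterus in one pair and at least 2-fold below it in the other; with 1 library a group the difference was not tested. Fbln2, fibulin 2, an elastic fibre protein, was higher in heart by 1.16 on the log2 scale in the control pair and lower in heart in the DHEA pair (-1.61), so that the pairs differed by 2.77; it was at 21.0 FPKM in both heart libraries, and at 8.83 FPKM in the control uterus and 66.0 FPKM in the DHEA uterus. Ccn2, connective tissue growth factor, ran the other way, at -1.20 in the control pair and 1.69 in the DHEA pair, a difference of -2.89; it was at 28.7 and 41.7 FPKM in heart, 67.5 FPKM in the control uterus and 12.2 FPKM in the DHEA uterus. Over all 12402 genes tested, 29 turned in this way, 11 in the direction of Fbln2 and 18 in that of Ccn2.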

How the results depend on the processing

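Of the 149 named genes called by the 2-fold rule, rescaling kept 149, and centring kept 138 and lost 11 (Agtr2, Ano1, Aspn, Atp2b1, Ckmt1, Cnn3, Col6a3, Itpr3, Mmp7, Sgce and Vim). A left-out library or the smaller pseudocount cannot end a call by this rule. A filter can end a call only by taking the gene out of the test. With the 5 FPKM filter 135 of the 149 were still tested, and all 135 kept their call. Of the named genes not called, 14 passed after centring, Acta1, Tnnt1 and Rbm24 among them, and 7 after rescaling. Of all 297 list members called, centring ended 46 of the 154 uterus calls, Itpr1, Prkg1, Utrn and Myh9 among them, and 0 of the 143 heart calls. Rule calls moved to 1835 in heart and 1095 in uterus after centring, and to 1801 in uterus with the 5 FPKM filter, which tests fewer genes. limma calls moved to 2592 and 1727 after centring, and in uterus to 3036 without a filter and 2983 with the 5 FPKM filter; leaving out a library gave 0 to 2246 in heart and 0 to 7376 in uterus, with 0 without either heart library, where the lone heart library is assumed to vary like uterus. The treatment block (replicate block by treatment) gave 1352 and 4268, and all 20 libraries 1870 and 6825; groups share no replicate numbers beyond 1 library each. List counts changed by over 1.5 times in 46 of 414 recomputed counts. After centring, uterus counts were 6 nonmuscle, 2 calcium, 2 costamere, 17 fibrillar matrix, 5 matrix enzyme and 1 energy gene, and heart counts 4 splicing, 2 fibrillar matrix, 2 proteoglycan, 2 basement membrane, 4 matrix enzyme, 1 fibroblast, 4 endothelial and 1 adipocyte gene. After rescaling, heart counts were 2 proteoglycan, 2 basement membrane and 1 adipocyte gene. With the pseudocount of 0.1, 2 skeletal genes were higher in uterus, and 1 fibrillar matrix and 2 proteoglycan genes in heart. With the 5 FPKM filter, 1 skeletal, 1 splicing and 0 matrix enzyme genes were higher in heart, and 0 skeletal and 3 receptor genes in uterus. Leaving out each library gave heart counts of 1 to 2 nonmuscle, 2 to 4 splicing, 0 to 4 fibrillar matrix, 1 to 2 proteoglycan, 0 to 1 basement membrane, 2 to 4 matrix enzyme, 0 to 1 fibroblast, 2 to 7 endothelial and 0 to 1 adipocyte genes, and uterus counts of 1 to 3 skeletal, 5 to 9 receptor, 11 to 19 matrix enzyme, 2 to 5 energy, 0 to 1 endothelial and 1 to 8 macrophage genes. The cause was not tested.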
